A study of Mus musculus with 8 samples.

Results

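The regions described here are those at which FAIRE-seq peaks differed between non-transformed EpH4 cells cultured with TGF-β and EpH4 cells left untreated. EpH4 is a mouse mammary gland epithelial line without active H-Ras, and the treated cells received 1 ng/ml TGF-β3 for 8 days. There were 2 libraries of untreated and 2 of treated EpH4 cells, of the 8 libraries in the study. The other 4 came from EpRas cells, the H-Ras-transformed derivative of EpH4, untreated or given the same TGF-β treatment. The EpH4 lists held 54302 of the 129466 peaks of the study, and merging the peaks that shared at least 1 bp gave 23547 EpH4 regions, against 37230 for all 8 lists. Regions called in both treated libraries and in neither untreated library are called gained, and there were 1220 of them (5.18% of the 23547). Regions called in both untreated libraries and in neither treated library are called lost, and there were 627 (2.66%). A further 5930 regions (25.2%) were called in all 4 libraries, and 5424 (23.0%) were called in only 1 treated and 3349 (14.2%) in only 1 untreated library. These classes follow from the calls themselves and carry no test.

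TGF-β binds a pair of serine/threonine kinase receptors that phosphorylate Smad2 and Smad3, which enter the nucleus with Smad4 and bind DNA together with other factors, AP-1 among them. In mammary epithelial cells TGF-β is known to arrest growth, and in cells with active Ras it can drive epithelial-mesenchymal transition, the exchange of epithelial junctions for a migratory, matrix-producing state. FAIRE recovers DNA that escapes crosslinking to protein, so that its peaks mark promoters and enhancers open to such factors. The comparison asked what TGF-β does to these regions in cells that lack the oncogene. In a bulk assay, a region open in fewer cells and a region less open in each cell cannot be told apart.

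The label of the cells was checked at promoters. Of 10 epithelial marker genes, *Cdh1*, *Cldn4* and *Elf3* had a promoter peak in all 4 libraries, and *Epcam* and *Ehf* had one in none. Of 15 genes that mark other lineages, 0 had a promoter peak in all 4 libraries and 13 had one in none. For comparison, 12.8% of all protein-coding genes had a promoter peak in all 4 libraries and 65.6% had one in none. The exceptions were *Pdgfra*, with a peak in 1 untreated and 1 treated library, and *Tubb3*, with a peak in 1 treated library. The 2 treated lists differed in length, with 17927 and 10821 peaks against 12462 and 13092 in untreated cells (replicates 1 and 2). The number of reads behind a list is unknown, so the main counts are also given for the 10821 highest-scored peaks of each list. At equal numbers there were 870 gained and 794 lost regions, and 4522 were called in all 4 libraries. Of the 1220 gained regions, 617 (50.6%) were gained at equal numbers too, as were 383 (61.1%) of the 627 lost ones. Seen from the equal-number lists, these were 70.9% of the gained and 48.2% of the lost regions. With 1 library left out, so that 1 call sufficed for its group, the counts were 2172 to 5703 gained and 872 to 2480 lost regions, the highest gained count being that without the second treated library.

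The sequences below are examples of the 3 kinds of change described here, namely the 4 highest-scored gained regions, the second of the lost regions by score, and the second of the regions that moved up in rank. They are the central bases of a region, read 5′ to 3′ on the plus strand of GRCm38 (mm10), with each match to the AP-1 element TGAGTCA, or its reverse complement TGACTCA, in capitals. Of the gained regions, the first lay in an intron of *Slc24a2* (chr4:87078746-87078995), the second 94.5 kb from the start of *Ifne*, between genes (chr4:88974622-88974871), the third in an intron of *Col27a1* (chr4:63283353-63283602) and the fourth 4.88 kb from the nearest protein-coding start, that of *Aqp3* (chr4:41102938-41103187). The lost region lay in an intron of *Cd9* (chr6:125483476-125483725). The last sequence is that of a region called in all 4 libraries, 5.22 kb downstream of the start of *Snai1* (chr2:167543287-167543536), at which the scores of the treated libraries ranked higher. The *Slc24a2*, *Col27a1*, *Aqp3* and *Cd9* windows held 1 match each, and the *Ifne* and *Snai1* windows held 0. The windows of the leading lost region and of the leading region by upward change, which are not shown, also held 0.
Slc24a2 gained: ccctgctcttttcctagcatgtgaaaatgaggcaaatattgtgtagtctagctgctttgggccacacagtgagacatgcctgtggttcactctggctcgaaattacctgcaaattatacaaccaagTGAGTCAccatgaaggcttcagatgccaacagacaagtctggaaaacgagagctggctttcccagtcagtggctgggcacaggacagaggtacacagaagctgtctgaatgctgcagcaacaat
Ifne gained: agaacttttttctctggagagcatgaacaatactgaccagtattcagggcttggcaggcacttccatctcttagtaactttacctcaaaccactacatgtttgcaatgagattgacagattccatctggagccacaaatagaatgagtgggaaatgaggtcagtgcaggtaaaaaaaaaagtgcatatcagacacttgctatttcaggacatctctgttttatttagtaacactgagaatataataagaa
Col27a1 gained: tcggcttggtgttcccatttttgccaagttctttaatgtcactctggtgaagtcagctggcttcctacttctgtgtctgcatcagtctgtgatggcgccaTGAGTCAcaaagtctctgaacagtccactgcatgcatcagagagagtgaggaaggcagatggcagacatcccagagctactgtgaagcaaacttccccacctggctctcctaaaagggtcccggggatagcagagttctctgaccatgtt
Aqp3 gained: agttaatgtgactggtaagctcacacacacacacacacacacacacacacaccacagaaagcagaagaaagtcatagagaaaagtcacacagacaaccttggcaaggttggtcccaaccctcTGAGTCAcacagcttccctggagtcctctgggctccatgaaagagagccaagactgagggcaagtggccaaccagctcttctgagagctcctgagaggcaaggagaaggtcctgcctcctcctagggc
Cd9 lost: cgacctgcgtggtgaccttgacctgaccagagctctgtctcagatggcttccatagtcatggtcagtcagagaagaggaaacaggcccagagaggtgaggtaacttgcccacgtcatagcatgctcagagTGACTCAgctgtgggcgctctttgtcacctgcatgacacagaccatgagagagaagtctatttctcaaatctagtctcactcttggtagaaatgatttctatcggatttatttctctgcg
Snai1 called in all 4: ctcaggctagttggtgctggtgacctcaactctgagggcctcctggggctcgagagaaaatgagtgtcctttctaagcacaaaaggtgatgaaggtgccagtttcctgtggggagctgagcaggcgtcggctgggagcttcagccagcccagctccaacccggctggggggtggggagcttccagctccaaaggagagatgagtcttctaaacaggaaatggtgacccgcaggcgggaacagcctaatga

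The gained regions with the highest scores were introns of *Slc24a2* and *Col27a1* and intergenic segments near *Ifne* and *Aqp3*. Scores were compared as percentiles within a list, where 100 is the highest score of that library. The leading gained region was the *Slc24a2* intron printed first above, at percentiles 90.2 and 95.8 in the treated libraries and without a call in the untreated ones. *Slc24a2* encodes a sodium, potassium and calcium exchanger, and its nearest start was 149 kb away. The second was intergenic, 94.5 kb from *Ifne*, the interferon epsilon gene (chr4:88974587-88974906, percentiles 94.3 and 88.6). The *Col27a1* intron followed with 90.3 and 89.4. *Col27a1* encodes a fibrillar collagen, although the nearest protein-coding start, at 61.1 kb, was that of *Orm1*. The region near *Aqp3*, which encodes an aquaglyceroporin of epithelial cells, reached 83.9 and 95.5.

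These first 4 gained regions were on chromosome 4. The next were the promoters of *Ppm1g* (95.9 and 81.8) and *Rps6kb2* (91.8 and 83.5), which encode a phosphatase of the PP2C family and an S6 kinase, and an intron of *Slc45a4* (91.8 and 85.0). Regions nearest to *B230104I21Rik* (80.0 and 93.2), *Dact2* (96.4 and 76.1) and *Eml4* (83.6 and 88.4) completed the first 10. *Dact2* belongs to a family of modulators of Wnt and TGF-β signaling. At equal numbers of peaks each of these 10 remained gained. The AP-1 element lay within the 500 bp around the midpoint of 6 of them. Outside promoters it lay in 53.5% of all gained regions and in 47.4% of all EpH4 regions.

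The lost regions with the highest scores included 4 promoters, those of *Syt12*, *Shc1*, *Epha1* and *Rbm7*. The promoter of *Syt12*, a synaptotagmin gene, led with percentiles 78.6 and 98.8 in the untreated libraries and no call in the treated ones (chr19:4477844-4478162). The *Cd9* intron reached 74.0 and 92.6. *Cd9* encodes a tetraspanin that associates with integrins. The *Ssr1* region reached 71.3 and 93.3, and an intergenic region 64.8 kb from *E030018B13Rik* reached 95.2 and 66.2. The promoters of *Shc1* (74.3 and 85.9) and *Epha1* (87.0 and 72.7) were also lost. *Shc1* encodes an adaptor between receptor tyrosine kinases and Ras, and *Epha1* an ephrin receptor of epithelia. Introns of *Rapgef2* (89.7 and 70.9), a guanine nucleotide exchange factor for Rap, and at *Gm7168* (88.5 and 72.8), an exonic region 50.1 kb from *Fut10* (76.8 and 81.9) and the promoter of *Rbm7* (82.7 and 75.7) completed the list. At equal numbers each of these 10 remained lost. All of them but those of *Syt12*, *Epha1* and *Rbm7* held the AP-1 element within the 500 bp around the midpoint.

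**Figure D1:**
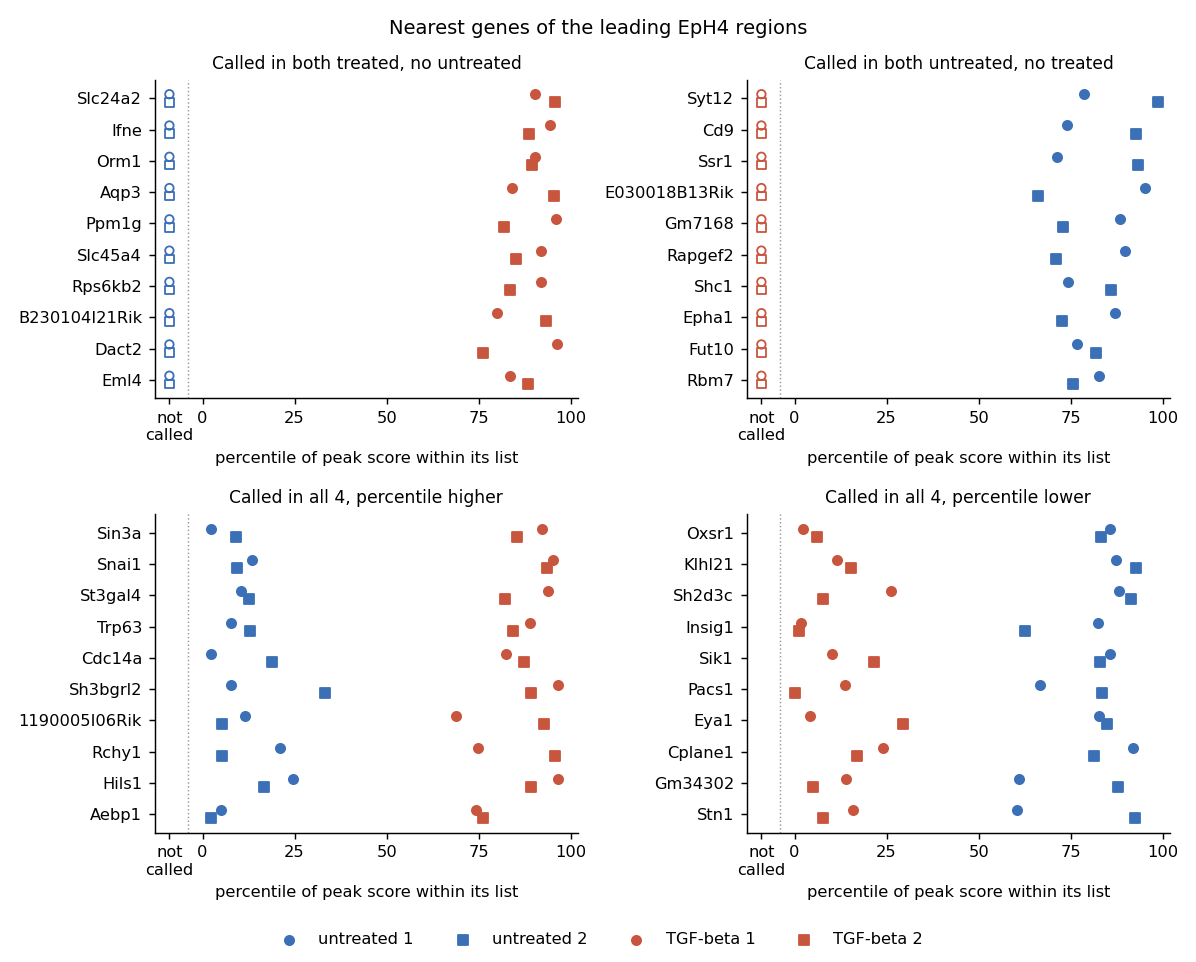
Percentile of the peak score within its own list (x axis, 0 to 100, with a separate position for libraries in which the region was not called) at the 10 leading regions of each kind, named by the nearest protein-coding gene. Circles and squares are replicates 1 and 2, blue untreated and red TGF-β. At Snai1 the untreated libraries are at 13.5 and 9.46 and the treated ones at 95.1 and 93.4, and at Oxsr1 the order is the opposite.

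Gained regions lay farther from gene starts than regions called in all 4 libraries. A region was placed in a promoter when its midpoint was within 2 kb of an annotated transcription start. Promoters held 28.4% of the gained regions (346 of 1220, Wilson 95% interval 25.9 to 31.0), 36.04% of the lost regions (226 of 627, 32.4 to 39.9), 44.6% of the regions called in all 4 libraries (43.3 to 45.9) and 37.0% of all EpH4 regions. Introns held 35.4% of the gained, 33.5% of the lost and 27.5% of the regions called in all 4. Intergenic segments held 34.6%, 28.4% and 26.4%. The median distance to a protein-coding start was 19.3 kb for gained, 14.5 kb for lost and 9.65 kb for regions called in all 4, and 13.8 kb over all regions. At equal numbers of peaks the promoter shares were 31.5%, 37.5% and 46.7% in the same order.

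Widths and scores of the classes follow in part from how the classes were made, since a region called in all 4 libraries is merged from at least 4 peaks, and are given as description. Median widths of gained and lost regions were 279 and 267 bp, against 371 bp for regions called in all 4 libraries. The median percentile of gained regions in the treated lists was 38.0 and that of lost regions in the untreated lists 34.7, whereas regions called in all 4 stood at 67.0 and 64.8 in treated and untreated lists. By library, promoter peaks made up 41.5% and 41.2% of the untreated lists and 37.8% and 40.4% of the treated lists. Both treated libraries were below both untreated ones, with a mean difference of −2.23 points. At equal numbers of peaks the shares were 42.9% and 42.9% against 42.2% and 40.4%, a mean difference of −1.60 points. With 2 libraries a group an exact permutation test cannot give less than p = 0.33, which is what it gave (two-sided, n = 2 against 2).

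The share of distal gained regions whose nearest gene had no promoter peak was below that over all protein-coding genes and between those of lost regions and of regions called in all 4 libraries. Of the 874 gained regions outside promoters, 57.0% had a nearest protein-coding gene without a promoter peak in any EpH4 library, and 14.8% (12.6 to 17.3) had one with a promoter peak in all 4. The shares were 60.8% and 13.0% for the 401 distal lost regions, and 50.7% and 17.3% for the 3285 distal regions called in all 4 libraries. For protein-coding genes in general they were 65.6% and 12.8%.

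Several gained regions fell at the same locus in a few genes, among them *Adamts16*, *Adarb1* and *Col27a1*. A locus was the annotated span of a protein-coding gene with 20 kb on each side. Of 21951 loci, 1374 (6.26%) held at least 1 gained region and 804 (3.66%) at least 1 lost region. *Adamts16*, which encodes a secreted metalloprotease, had 0 and 1 peaks in the untreated and 5 and 4 in the treated libraries, with 3 gained regions. The highest of these was in an intron, 47.4 kb downstream of the start (chr13:70794260-70794598, percentiles 77.8 and 86.3). *Adarb1*, which encodes an RNA-editing adenosine deaminase, went from 1 and 1 peaks to 6 and 4, and *Col27a1* from 3 and 1 to 10 and 6, each with 3 gained regions. The loci were chosen for their gained regions, so a higher treated count follows from the choice. With equal numbers of peaks in each list, 3 of the 3 regions at *Adamts16* were still gained, 1 at *Adarb1* and 2 at *Col27a1*.

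Other loci with 3 gained regions were *Etv6*, *Nsd3*, *Plekhg1*, *Shroom3* and *Htra1*. *Etv6* encodes an ETS family repressor and had 2 and 2 peaks in untreated, 5 and 3 in treated libraries. *Nsd3*, which encodes a histone H3 lysine methyltransferase, had 1 and 0 against 5 and 4. *Htra1*, the gene of a secreted serine protease, had 3 and 3 against 9 and 5. *Plekhg1* had 2 and 2 against 7 and 4, and *Shroom3*, which encodes an actin-binding protein of apical constriction, had 4 and 6 against 8 and 6, so that its groups overlapped. Both also held 1 lost region. At equal numbers 1 of the 3 regions at *Etv6* was still gained, and 2 of 3 at each of *Nsd3*, *Htra1*, *Plekhg1* and *Shroom3*. The 3 gained regions of *Htra1* also fell within the annotated span of *Fgfr2*, which counted 5, so the pair is not independent. That span is long (chr7:130162451-133123350), and its 5 gained regions lay 88.9 to 1104.85 kb from a *Fgfr2* start. *Gse1* had 4 gained regions, with 12 and 11 peaks in untreated and 20 and 16 in treated libraries, and lies inside the read-through gene model *Gm20388*, whose long span held 20 gained regions and 0 lost ones. At equal numbers 2 of the 4 regions at *Gse1* and 3 of the 5 at *Fgfr2* were still gained.

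At most 3 lost regions fell at a locus. *Ppl* and its neighbor *Sec14l5* shared 3 lost regions between them. *Ppl* encodes periplakin, a cytolinker of epithelial desmosomes, and the locus had 4 and 3 peaks in untreated and 2 and 0 in treated libraries. The percentiles of its lost regions in the untreated lists were 34.1 and 13.8, 55.1 and 36.8, and 22.8 and 18.9. A further 31 loci held 2 lost regions each, among them *Ak5*, *Apbb2* and *Aqp2*. *Ak5* encodes an adenylate kinase and had 4 and 4 peaks in untreated against 2 and 2 in treated libraries. *Apbb2* had 12 and 9 against 12 and 5, so its groups overlapped. *Aqp2*, the gene of a water channel, had 3 and 3 against 3 and 2, and also held 1 gained region. At equal numbers 2 of the 3 regions at *Ppl* were still lost, 1 of 2 at each of *Ak5* and *Aqp2*, and 0 of 2 at *Apbb2*.

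**Figure D2:**
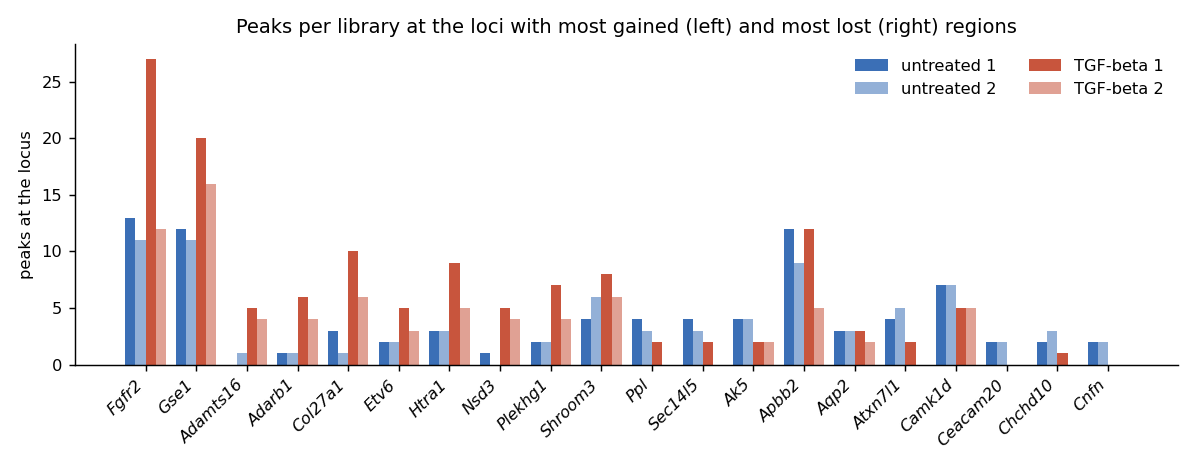
Number of peaks (y axis) in each EpH4 library at the loci with most gained regions, from Fgfr2 to Shroom3, and at 10 loci with most lost regions, from Ppl to Cnfn. Bars are single libraries, blue untreated and red TGF-β, with replicate 1 dark and replicate 2 pale. Adamts16 had 0 and 1 peaks without and 5 and 4 with TGF-β, and Cnfn had 2 and 2 without and 0 and 0 with it. At equal numbers of peaks 0 of the 2 lost regions at Cnfn were still lost.

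Over all loci, 965 (4.4%) had more peaks in both treated than in both untreated libraries and 510 (2.32%) had fewer. At equal numbers of peaks the order of these counts was the opposite, with 757 higher and 798 lower.

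Among TGF-β pathway genes, gained regions were found at *Smad3*, *Ltbp2* and *Ldlrad4*, among others. In *Smad3*, which encodes a receptor-regulated Smad, an intronic region 25.1 kb downstream of the start was called at percentiles 43.0 and 49.2 with TGF-β and held an AP-1 element (chr9:63732778-63732995). The *Ltbp2* region, in an intron, stood at 6.48 and 2.97 in treated cells and was not gained at equal numbers of peaks, where 1 treated library called it. A lost region lay 11.05 kb upstream of a *Pdgfb* start (percentiles 1.38 and 22.7 in untreated cells), and another in *Ltbp1* (45.2 and 76.1). At equal numbers 1 untreated library called the *Pdgfb* region.

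Counted by list, 1 of 12 loci of ligands, receptors and latency proteins had a gained and 1 a lost region. Of 14 Smad and feedback loci 1 had a gained and 0 a lost region, and of 17 early target loci 2 and 1. These shares are of the order of the 6.26% and 3.66% over all loci. List loci also held more regions of any kind, with means of 3.25, 3.43 and 3.76 regions a locus against 1.49 over all loci. At equal numbers 0 ligand and receptor loci had a gained and 2 a lost region, 1 and 0 Smad loci, and 3 and 1 early target loci, against 4.68% and 4.59% of all loci.

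Mesenchymal, matrix and contractile genes had gained regions at 7 of 35 loci and lost regions at 2, beside 6.26% and 3.66% of all loci. They held 2.34 regions a locus on average, against 1.49 over all loci. *Sparc*, which encodes the matrix protein osteonectin, had an intronic gained region 13.8 kb from its start (chr11:55405885-55406273, percentiles 70.9 and 86.6) with an AP-1 element. A region 11.8 kb upstream of *Itga5*, the integrin α5 gene, reached 82.8 and 82.0 (chr15:103378304-103378729) and lay at the start of another annotated gene. *Tpm2*, a tropomyosin gene, had an intronic region at 88.5 and 61.0, 2.15 kb from its start. *Mmp9*, which encodes a gelatinase, had a pair of upstream regions at 16.8 kb (84.1 and 27.5) and 15.4 kb (38.4 and 13.9). *Itgb1* (15.7 and 54.6) and *Itgb3* (49.3 and 49.2), which encode integrin β subunits, had 1 gained region each. At equal numbers the *Itgb1* region and the nearer *Mmp9* region were each called in 1 treated library and were not gained.

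*Plaur*, which encodes the urokinase receptor, had a gained region (51.6 and 4.79 in treated cells) and, 2.42 kb upstream of its start, a separate lost region (40.9 and 21.1 in untreated cells). A region 2.55 kb upstream of *Col1a1*, the α1 chain gene of type I collagen, was lost, at low percentiles of 15.7 and 14.9. At equal numbers 1 untreated library called the *Col1a1* region. At equal numbers 6 of the 35 loci had a gained and 1 a lost region, against 4.68% and 4.59% of all loci.

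Epithelial genes had both gained and lost regions. Of 26 junction and splicing loci 3 had a gained and 2 a lost region, and of 35 epithelial and mammary identity loci 4 had a gained and 4 a lost region, beside 6.26% and 3.66% of all loci. These lists held 3.65 and 2.57 regions a locus, against 1.49 over all loci. At equal numbers 4 junction and splicing loci had a gained and 2 a lost region, against 4.68% and 4.59% of all loci. The promoter of *Esrp2*, an epithelial splicing regulator, was gained, although its percentile was 68.9 in one treated library and 0.91 in the other (chr8:106136848-106137121). A *Pkp2* intron, in a desmosomal plakophilin gene, was gained at 65.9 and 63.8. *St14*, which encodes the membrane protease matriptase, lost its promoter region (64.7 and 31.1 in untreated cells) and gained an intronic one 11.1 kb downstream (69.6 and 54.7 in treated cells). *Prss8*, the gene of the matriptase partner prostasin, had a lost region 5.41 kb upstream (24.6 and 54.1).

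*Grhl2*, which encodes a grainyhead factor of epithelial identity, gained a promoter region (68.7 and 70.0 in treated cells). In untreated replicate 1 a separate peak was called within 2 kb of a *Grhl2* start. *Grhl2* also lost an intronic region 104 kb downstream (37.9 and 69.3 in untreated cells). *Trp63*, the gene of the basal-cell factor p63, and *Runx2* likewise had 1 gained and 1 lost region each. A *Runx1* intron 2.37 kb from a start was gained at 32.2 and 72.2, and a region 2.05 kb downstream of the *Klf4* start was lost (27.7 and 74.6). Of 11 keratin loci, *Krt80* had a gained region (62.0 and 18.2) and 0 had a lost one. At equal numbers 1 keratin locus had a gained and 1 a lost region. The identity list had 1 locus with a gained and 3 with a lost region at equal numbers, against 4.68% and 4.59% of all loci. The gained regions of *Trp63*, *Runx1* and *Runx2* were then each called in 1 treated library. The lost region of *Runx2* was called in 1 untreated library and that of *Trp63* in none.

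Hippo pathway and TEAD loci had gained regions at 4 of 13 loci, the highest share of the lists, and lost regions at 1, beside 6.26% and 3.66% of all loci. They also held the most regions of the lists, 4.31 a locus against 1.49 over all loci. *Wwtr1*, which encodes the coactivator TAZ, had gained regions 74.8 kb (71.7 and 64.6) and 48.5 kb (52.3 and 12.6) from its nearest start. *Vgll4*, the gene of a TEAD cofactor that competes with YAP and TAZ, had gained regions at 71.1 and 67.0 and at 41.8 and 30.0. A gained region 21.8 kb from a *Tead3* start, at the promoter of *Rpl10a*, reached 75.3 and 86.2. One near *Nf2*, the merlin gene, stood at 18.4 and 37.2 and was called in 1 treated library at equal numbers. *Tead4* had a lost intronic region (17.9 and 26.5). At equal numbers 3 of the 13 loci had a gained and 2 a lost region, against 4.68% and 4.59% of all loci.

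AP-1 factor loci had gained regions near *Fosl1* (22.6 and 25.6) and *Junb* (10.1 and 13.7), 2 of 10 loci, and a lost region at the promoter of *Fosb* (64.7 and 93.6, chr7:19308534-19308877). Each list of this paragraph is to be read against the 6.26% and 3.66% of all loci. At equal numbers 0 of the 10 AP-1 loci had a gained and 2 a lost region, against 4.68% and 4.59% of all loci. Of 10 loci of transcription factors that drive epithelial-mesenchymal transition, *Zeb2* had a gained region (16.0 and 3.85), which 1 treated library called at equal numbers. Among 21 growth arrest and cell cycle loci, *Cdkn2a*, the locus of the INK4A and ARF inhibitors, had a gained region 24.2 kb downstream of a start (86.3 and 40.0). *Mki67*, a proliferation marker, had an upstream one (2.94 and 25.6), called in 1 treated library at equal numbers. For comparison, of 12 housekeeping loci *Tbp* had a gained promoter region (65.0 and 63.3), and 1 locus had a lost region. Of 15 loci of other lineages 0 had a gained region and *Pecam1* had a lost one (29.1 and 5.15), which 1 untreated library called at equal numbers. AP-1, transition factor and growth arrest loci held 3.6, 1.9 and 1.62 regions a locus, against 1.49 over all loci. Housekeeping and other lineage loci held 3.42 and 1.33.

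Of the genes that the study followed, *Cdh1*, *Fn1*, *Mmp13* and *Etv4* had 0 gained and 0 lost regions in EpH4 cells. At the *Cdh1* promoter, the gene of E-cadherin, percentiles were 60.4 and 51.8 in untreated and 54.3 and 40.8 in treated cells, which overlapped. The *Fn1* promoter, of the fibronectin gene, was called in 1 untreated library (51.7) and in both treated libraries (82.8 and 81.3). The region 13.9 kb upstream of *Mmp13*, a collagenase gene, ranked higher in both treated libraries (71.6 and 41.0) than in the untreated ones (14.2 and 22.7). The promoter of *Etv4*, an ETS factor gene of the PEA3 group, stood at 96.9 and 90.1 in untreated and 87.3 and 49.2 in treated cells, lower in both treated libraries. *Etv5*, of the same group, had a gained region 1.79 kb downstream of a start (46.0 and 42.4), while the region at its promoter, called in all 4 libraries, was lower in both treated libraries (77.1 and 57.5) than in the untreated ones (78.2 and 96.9). *Gapdh* had 1 region called in all 4 libraries, and *Cdh2*, the N-cadherin gene, had a peak in 0 of 4.

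Motifs were counted in the 500 bp around the midpoint of distal regions, on either strand. Of the 11 motifs searched, the AP-1 element TGAGTCA was the one whose share differed most between gained and lost regions. It was present in 53.5% of the 874 distal gained regions (50.2 to 56.8), 41.9% of the 401 lost regions (37.2 to 46.8), 55.04% of the regions called in all 4 libraries (53.3 to 56.7) and 47.4% of all distal regions. At least 2 matches were found in 11.2% of the gained, 8.48% of the lost and 16.2% of the regions called in all 4. At equal numbers the shares of gained and lost regions were 53.4% and 46.4%. The difference of 11.7 points between gained and lost regions was −3.28 points without the first treated library and 4.77 points without the second. With a treated library left out, 1 call sufficed for its group, so the classes changed as well. Why the difference changed was not tested.

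The Smad element CAGACA was present in 47.7% of gained (44.4 to 51.0), 42.4% of lost (37.7 to 47.3), 44.2% of regions called in all 4 and 43.3% of all distal regions. Within the central 200 bp the shares were 27.7%, 20.9%, 20.5% and 21.7%. The difference between gained and lost regions was 2.81 to 8.08 points with a library left out, and at equal numbers the shares were 46.3% and 41.7%. The RUNX element TGTGGTT was found in 20.3% of gained and 16.96% of lost regions, but in 19.8% and 19.6% at equal numbers. The TEAD element ACATTCC (12.9% and 16.2%), the E-box CACCTG bound by Snail and ZEB factors (30.0% and 35.9%) and the grainyhead element ACCNGGT (8.24% and 10.7%) were less frequent in gained than in lost regions. Of these differences, that of the grainyhead element had the opposite sign at equal numbers (8.05% and 7.06%), and that of TEAD did so without either untreated library (2.48 and 1.28 points). The other elements, CCGGAAG for ETS, TTGCGCA for CEBP, TTGGCA for NF1, TGACGTC for CRE and the GC box GGGCGGG, differed by less than 1 point between gained and lost regions.

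**Figure D3:**
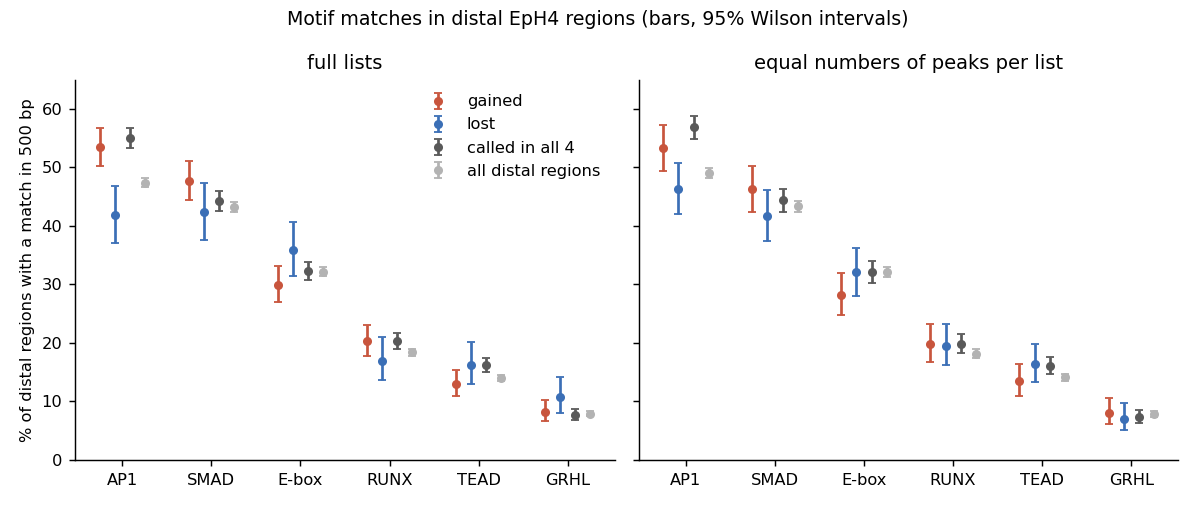
Share of distal EpH4 regions with at least 1 match (y axis, percent) for 6 motifs, in the full lists and in lists of equal length. Points are gained (red), lost (blue), called in all 4 libraries (dark grey) and all distal regions (light grey), with Wilson 95% intervals that cover counting error alone. AP1 stands at 53.5% of gained and 41.9% of lost regions in the full lists.

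The same shares by library allow a comparison over replicates. The Smad element was present in 42.6% and 42.5% of the distal peaks of untreated libraries and in 44.1% and 44.7% of those of treated libraries. For RUNX the shares were 18.5% and 18.4% against 19.2% and 19.3%, for AP-1 49.8% and 49.9% against 50.4% and 51.8%, and for the E-box 32.9% and 32.7% against 32.1% and 31.5%. For the GC box they were 6.66% and 6.59% against 6.05% and 6.5%. In these 5 of the 11 motifs the treated libraries lay on one side of both untreated ones, and in the other 6 the groups overlapped. With library labels assigned at random, groups of 2 fail to overlap with a probability of 0.33. The exact permutation test gave p = 0.33 each time, the smallest it can give with n = 2 against 2 (two-sided).

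The regions called in all 4 libraries allowed a comparison of score rank. The percentile was higher in both treated than in both untreated libraries at 1110 of the 5930 regions (18.7%) and lower at 850 (14.3%). With library labels assigned at random, groups of 2 fail to overlap, in either direction, with a probability of 0.33. Percentiles were not adjusted for the length of a list. Their medians at these regions were 67.9 and 68.8 in untreated and 77.0 and 63.8 in treated libraries (replicates 1 and 2). The median change was 0.94 percentile points (interquartile range −12.2 to 15.5). Replicates differed by a median of 18.5 points in untreated and 18.5 points in treated cells. The means of the groups differed by a median of 13.8 points in either direction. Each of these is a mean of 2 libraries, so that value cannot be set against the difference of single libraries. In limma on rank-normalized scores, 0 regions were higher and 0 lower at an adjusted p under 0.05 (0% each), and the smallest adjusted p was 0.946. At an unadjusted p under 0.05, 179 were higher and 90 lower, 4.54% of the regions. The changes at named regions below are therefore described and not called.

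**Figure D4:**
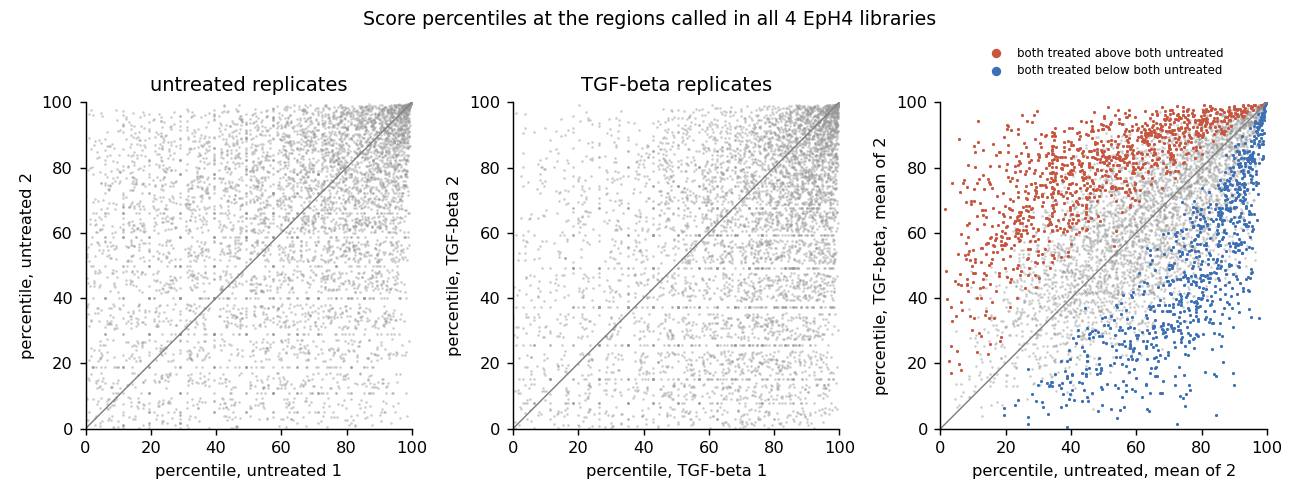
Score percentiles (both axes, 0 to 100) at the 5930 regions called in all 4 EpH4 libraries, for the untreated replicates, the treated replicates, and the mean of untreated against the mean of treated libraries. Red points are regions with both treated libraries above both untreated ones (1110) and blue points the opposite (850). Replicates differ by a median of 18.5 points in each group. The third panel plots means of 2 libraries, whose spread is not comparable with that of single libraries.

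The largest change toward a higher rank was at the promoter of *Sin3a*, which encodes the scaffold of a histone deacetylase complex. Its percentiles were 2.25 and 9.13 in untreated and 92.2 and 85.4 in treated cells (chr9:57075863-57076364, limma adjusted p = 0.946). The second was the region printed above downstream of *Snai1*, the gene of the Snail repressor, with 13.5 and 9.46 against 95.1 and 93.4 (chr2:167543190-167543633, limma adjusted p = 0.946). Both treated libraries stood far above both untreated ones at each. At equal numbers the *Sin3a* promoter was called in 0 untreated and 2 treated libraries, and the *Snai1* region in 1 and 2. A region 141 kb from *Trp63* had 7.72 and 12.9 against 89.0 and 84.2 and held an AP-1 element.

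Also among the 10 regions with the largest upward change were the promoter of *Aebp1*, which encodes a secreted protein of the matrix (4.93 and 2.36 against 74.2 and 76.2), and a region nearest to *Hils1* that lay 22.01 kb downstream of the *Col1a1* start (24.6 and 16.6 against 96.4 and 89.1). The others were nearest to *St3gal4*, *Cdc14a*, *Sh3bgrl2*, *1190005I06Rik* and *Rchy1*.

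The largest change toward a lower rank was at the promoter of *Oxsr1*, which encodes a stress-responsive kinase of ion cotransporters, from 85.6 and 83.3 in untreated to 2.36 and 6.11 in treated cells (chr9:119322655-119323028). It was followed by the promoters of *Klhl21* (87.4 and 92.8 against 11.5 and 15.2), which encodes a ubiquitin ligase adaptor, and *Sh2d3c* (88.1 and 91.4 against 26.3 and 7.79). A region 34.0 kb from *Insig1*, a regulator of sterol synthesis, had 82.4 and 62.5 against 1.80 and 1.14. A region 82.9 kb from *Sik1*, a salt-inducible kinase gene, had 85.7 and 82.9 against 10.3 and 21.7. The remainder were nearest to *Pacs1*, *Eya1*, *Cplane1*, *Gm34302* and *Stn1*. At equal numbers each of the 10 was called in both untreated libraries and in 1 treated library.

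Within the ligand and receptor list, the regions that ranked higher with TGF-β lay at latent TGF-β binding protein genes, which were singled out after their values were seen. These proteins tether the ligand in the matrix. Of the 11 regions at the loci of the list called in all 4 libraries, 6 were higher in both treated libraries and 0 lower, against 18.7% and 14.3% of all such regions, and the 6 lay at *Ltbp1*, *Ltbp2* and *Ltbp3*. Of the 11 regions 10 lay at the loci of these genes, so they make up nearly the whole list. The *Ltbp1* promoter had 13.2 and 3.53 in untreated and 44.7 and 72.9 in treated cells (chr17:75178335-75178859). An intronic region 166 kb downstream had 33.7 and 35.4 against 73.5 and 83.7, and one 67.7 kb upstream of that promoter 36.001 and 62.9 against 66.1 and 89.0. The *Ltbp1* locus as a whole had 8 and 9 peaks in untreated and 7 and 6 in treated libraries, fewer in both. In *Ltbp3* an intronic region had 84.8 and 76.8 against 99.3 and 90.3. As over all regions, 0 of these passed limma (smallest adjusted p = 0.946).

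Of the 19 regions at Smad and feedback loci 2 were higher and 0 lower, beside 18.7% and 14.3% of all such regions. They lay 80.0 kb from a start of *Smad6*, an inhibitory Smad gene (39.4 and 45.8 against 88.2 and 73.8), and in *Smurf1*, the gene of a ubiquitin ligase for Smads and receptors (25.8 and 7.92 against 41.8 and 42.5). Of the 14 regions at early target loci 2 were higher, both at *Nedd9*, and 3 lower, beside the same 18.7% and 14.3%. The lower ones included a region 1.88 kb upstream of *Myc*, which TGF-β is known to repress in epithelial cells (83.9 and 87.1 against 44.4 and 20.5).

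Of the 17 regions at mesenchymal, matrix and contractile loci 6 were higher and 2 lower (18.7% and 14.3% over all regions), with a median change of 12.9 points against 0.94 over all 5930. The higher ones lay at the loci of *Col1a1*, *Col1a2*, *Cnn1*, *Mmp13*, *Timp3* and *S100a4*. At *Col1a2*, 16.99 kb upstream, percentiles were 63.6 and 54.0 against 89.6 and 66.8. The lower ones were in *Col4a2* (78.2 and 99.1 against 77.3 and 57.1) and near the *S100a4* start (96.9 and 90.7 against 74.9 and 90.5).

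Of the 28 regions at epithelial junction and splicing loci 4 were higher and 8 lower, against 18.7% and 14.3% of all regions. Lower in both treated libraries were the promoter of *Jup*, the plakoglobin gene (83.1 and 87.1 against 78.8 and 21.2), a region 50.4 kb downstream of the *Cdh3* start (95.8 and 87.3 against 58.1 and 41.0) and one 4.67 kb upstream of *Cldn3*, a claudin gene (83.1 and 88.5 against 37.3 and 60.9). Higher were an intron of *Cdh1* (14.8 and 74.0 against 74.4 and 79.1) and a region 4.72 kb upstream of *Rab25*, a small GTPase gene of polarized epithelia (83.9 and 55.1 against 94.1 and 96.6). The median change of this list was −1.33 points.

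Hippo and TEAD loci had 5 higher and 1 lower of 16 regions (18.7% and 14.3% over all regions), with a median change of −4.49 points, so that the count and the median differ in direction. An intron of *Vgll4* stood at 47.0 and 52.4 in untreated and 96.8 and 89.4 in treated cells, and a *Lats2* upstream region at 32.1 and 22.4 against 59.6 and 70.7. In *Tead1* an intronic region was lower (49.2 and 79.7 against 11.5 and 25.6). The remaining lists, to be read against the same 18.7% and 14.3%, were AP-1 factors (2 higher and 1 lower of 9), transition factors (2 and 1 of 5), identity factors (3 and 1 of 17), keratins (1 and 0 of 6), growth arrest (1 and 3 of 15), housekeeping genes (1 and 1 of 10) and other lineages (2 and 0 of 4).

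The regions with higher and lower rank resembled each other in position. Promoters held 43.5% of the 1110 higher and 41.4% of the 850 lower regions, against 44.6% of all 5930.

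The EpRas libraries, which were not used to choose the regions, show how the EpH4 response stood in transformed cells given the same treatment. Of the 1220 gained regions, 42.9% and 33.4% were called in the untreated EpRas libraries and 65.9% and 46.2% in the treated ones. Both treated libraries were above both untreated ones, by 18.0 points on average (p = 0.33 in a two-sided exact permutation test of 2 against 2 libraries, which can give no smaller value). For the 627 lost regions the shares were 49.1% and 41.1% against 65.2% and 43.4%, a difference of 9.17 points (exact permutation test, p = 0.667, n = 2 against 2), and for all EpH4 regions the difference was 10.9 points. The treated EpRas lists are longer, and equal numbers of peaks changed these values. Gained regions were then called in 34.5% and 31.6% of cases without and 39.0% and 38.6% with TGF-β, a difference of 5.75 points. Lost regions were called in 39.2% and 40.6% without and 34.8% and 35.3% with TGF-β, a difference of −4.85 points, against −0.44 points for all EpH4 regions. In each of these comparisons of gained and lost regions at equal numbers the groups did not overlap, and the exact permutation test gave its smallest value (p = 0.33, n = 2 against 2).

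Regions gained in EpH4 cells were called in both treated and neither untreated EpRas library in 122 cases (10.0%), against 27 of the lost regions (4.31%) and 5.45% of all EpH4 regions. The *Slc24a2* and *Ifne* regions that led the gained list had this pattern. The *Aqp3* region was called in 0 of the 4 EpRas libraries, and the *Rps6kb2* promoter in all 4. Among the gained list regions, those at *Itga5*, *Pkp2*, the more distant *Mmp9* region and 1 of the *Vgll4* regions were called in both treated and neither untreated EpRas library, whereas those in *Smad3* and *Tpm2* and at the *Grhl2* promoter were called in none. Whether the TGF-β response differed between the lines was not tested.

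**Figure D5:**
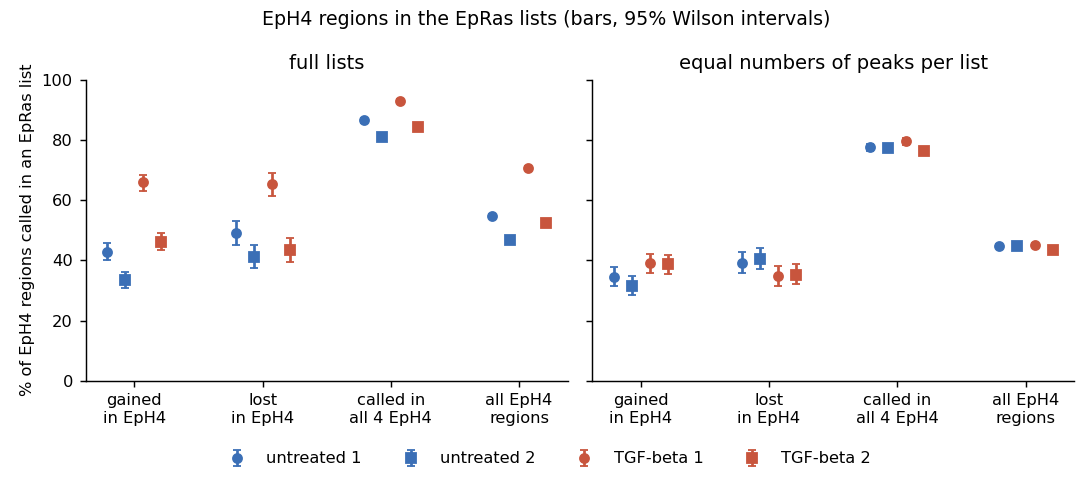
Share of EpH4 regions called in each EpRas library (y axis, percent) for regions gained, lost and called throughout in EpH4 cells and for all EpH4 regions, in the full lists and in lists of equal length. Points are libraries, blue untreated and red TGF-β, circles and squares replicates 1 and 2, with Wilson 95% intervals. At equal numbers the gained regions stand at 34.5% and 31.6% without and 39.0% and 38.6% with TGF-β, and the lost regions in the opposite order.

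The share of regions that were gained varied by chromosome. Of the EpH4 regions on an autosome, 3.98% (chromosome 15) to 7.66% (chromosome 18) were gained and 1.38% (chromosome 18) to 5.46% (chromosome 12) were lost. Chromosomes 4 and 8 held 103 gained against 30 lost and 107 gained against 22 lost regions. In windows of 5 Mb, the window with most gained regions was at 120 to 125 Mb of chromosome 8, with 22 gained and 1 lost of 194 regions and 107 and 98 peaks in untreated against 167 and 109 in treated libraries. It was followed by 85 to 90 Mb of chromosome 4, which holds the leading *Slc24a2* and *Ifne* regions, with 13 gained and 1 lost of 110 regions and 54 and 62 against 93 and 69 peaks. The median window of at least 20 regions had 4.76% gained and 2.38% lost regions.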

How the data were processed

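FAIRE-seq peak lists of 4 EpH4 and 4 EpRas libraries were analysed, 2 in each group. Per the labels and the study's methods, the authors mapped Ion Proton reads to mm10 with Bowtie2 and called peaks in each library with MACS2 2.0.9 (version from the submitters' processing notes). The deposited score of each peak has no stated unit, so it served only for ranks. Whether a control entered the calling is not given in the sources used here.

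Peaks were merged at 1 bp of overlap or more. Annotation was GENCODE vM21 on GRCm38, with 77238 starts. Score ranks (normal scores) were tested with limma 3.58.1 (R 4.3.3) and Benjamini-Hochberg adjustment, without a block, and the code was tested on simulated data. Intervals are Wilson 95% intervals and cover counting error only. Depth is unknown. Genes named were list genes with a gained or lost region, the 10 leading regions of each kind, the loci with most gained or lost regions (ties by name) and genes the study followed. Loci tied beyond the first 5, and list regions that ranked higher or lower, were named after their values were seen. Members and lists were chosen with earlier results of these data known. Results for some named genes and a sequence are not reported here.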

Additional observations from a re-analysis of the deposited data

How the results depend on the processing

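Called in both libraries of 1 group and not in both of the other, 3177 regions were gained and 2647 lost. These became 1674 and 1662 with peaks at or above the median score, which leaves fewer peaks, and the strict counts of 1220 and 627 became 629 and 317. With a library left out, a call in 1 library sufficed for its group, and the counts ranged from 2186 to 10206 and from 872 to 6139 for the looser and from 2172 to 5703 and from 872 to 2480 for the strict classes. The highest gained counts were those without TGF-β replicate 2, and leaving out any of the 4 libraries raised the strict gained count by over 1.5 times. The promoter share of gained regions was 31.5% at equal numbers, 24.8% within 1 kb and 28.3% to 33.9% with a library left out. That of lost regions was 30.1% within 1 kb and 34.2% to 40.1%. Loci with fewer peaks in treated cells numbered 798 at equal numbers. The AP-1 difference was −3.28 to 16.1 points with a library left out, with the sign turned (−3.28) without TGF-β replicate 1. The cause was not tested. The promoter difference between libraries was −3.53 to −0.918 points. The EpRas differences were 5.75 points for gained and −4.85 for lost regions at equal numbers, and 8.11 to 27.8 and −1.75 to 20.1 points with an EpRas library left out.

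With the replicate block, limma called 0 regions higher and 0 lower (196 and 113 at unadjusted p under 0.05), as it did in the other alternatives, among them the rank within the regions called in all 4 libraries, which was added after the data were seen (162 and 134 unadjusted). The unadjusted counts were 172 and 169 on the log2 score, 120 and 122 at equal numbers, 84 and 231 without TGF-β replicate 1. Same-numbered libraries did not deviate together (r = 0.0143), so the numbers were not taken as pairs.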
